A study of Mus musculus with 6 samples.

Results

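This account follows 41 genes of the NF-kB and inflammatory response through mouse leukemia cells labelled as lacking Rbm5 and leukemia cells labelled wild type. The genes were listed by name, but with earlier results of these data known, so the choice was not blind to them. All 41 have a row among the 56748 genes of the deposited count table. Bulk RNA sequencing was run on 3 libraries labelled Rbm5 knockout (numbers 31, 32 and 40) and 3 labelled Rbm5 wild type (numbers 25, 27 and 29). Both groups are MLL-AF9 leukemia, a myeloid leukemia driven by a fusion of MLL, a histone methyltransferase, with AF9, and RBM5 is an RNA-binding protein of pre-mRNA splicing. The labels give the source as mouse bone marrow, but describe it in one place as whole marrow and in another as cultured cells, and no treatment is named. For strain, age and the allele that removes Rbm5, nothing is given in the sources used here. The labels call the libraries independent replicates, so p-values measure the spread between these libraries, whatever its source.

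NF-kB is a family of dimeric transcription factors, built from RELA, RELB, REL and the processed products of Nfkb1 and Nfkb2, that is held in the cytoplasm by IkB proteins. Toll-like receptors and the receptors of TNF and interleukin-1 lead to the breakdown of IkB, and the freed dimers switch on cytokines, chemokines, adhesion molecules and their own inhibitors. In myeloid cells the same genes are part of the normal response to microbes, and many of them are also expressed more strongly as neutrophils and monocytes mature.

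NF-kB dimers bind DNA at the κB consensus, and the promoter stretches below are shown because they carry a match to it in chemokine, receptor, subunit and inhibitor genes. The sequences are RefSeq's for build GRCm38.p6, in a window from 250 bases before to 50 bases after each annotated start site, and 32 of the 41 genes had such a window. In the first set of 8, the capitals mark a match to the κB consensus on either strand, and each stretch lies wholly before the start site. Where matches overlap, as in palindromic sites, the capitals cover all of them.
Cxcl2 (chr5:90903782-90903832, plus strand): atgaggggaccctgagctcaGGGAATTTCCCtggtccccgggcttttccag
Cxcl3 (chr5:90786008-90786058, plus strand): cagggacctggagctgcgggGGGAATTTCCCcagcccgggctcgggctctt
Tlr2 (chr3:83841751-83841801, minus strand): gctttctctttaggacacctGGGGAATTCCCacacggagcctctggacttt
Rel (chr11:23771031-23771081, minus strand): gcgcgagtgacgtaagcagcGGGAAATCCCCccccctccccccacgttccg
Nfkb2 (chr19:46304678-46304736, plus strand): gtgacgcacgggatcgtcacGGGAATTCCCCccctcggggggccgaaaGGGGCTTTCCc
Nfkbia (chr12:55492648-55492696, minus strand): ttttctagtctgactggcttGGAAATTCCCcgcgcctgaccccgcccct
Nfkbie (chr17:45555574-45555623, plus strand): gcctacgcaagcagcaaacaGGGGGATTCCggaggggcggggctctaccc
Tnfaip3 (chr10:19015411-19015442, minus strand): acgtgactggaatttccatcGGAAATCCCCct
The chemokine genes Cxcl2 and Cxcl3 carry the same 11 bases in capitals, starting 97 and 73 bases before the start site. A match to the κB consensus was present in 14 of the 32 members with a window (43.8%), and in 5.14% of all 27025 genes with one. The motif TGANTCA, to which AP-1 binds and which reads alike on both strands apart from its central base, was present in 10 of the 32 (31.2%), Il1rn and Plaur among them, and in 8.97% of all genes.

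Of the 7 members that passed the test below, Bcl3 held a κB match, just after its start site, and 6 held none in this window. A second set of stretches shows the 100 bases before the start site for 4 of those 7. Capitals here mark TATAAA on the given strand, 20 to 40 bases before the start site, a box that positions the transcription machinery at many inducible genes.
Il1b (chr2:129371140-129371239, minus strand): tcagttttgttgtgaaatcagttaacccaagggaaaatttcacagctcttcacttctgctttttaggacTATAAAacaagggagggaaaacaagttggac
Acod1 (chr14:103046912-103047011, plus strand): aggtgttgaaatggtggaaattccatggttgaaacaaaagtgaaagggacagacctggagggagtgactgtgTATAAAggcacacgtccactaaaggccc
Tnfaip2 (chr12:111442561-111442660, plus strand): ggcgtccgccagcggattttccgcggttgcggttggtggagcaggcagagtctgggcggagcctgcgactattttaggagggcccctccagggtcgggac
Icam1 (chr9:21015840-21015939, plus strand): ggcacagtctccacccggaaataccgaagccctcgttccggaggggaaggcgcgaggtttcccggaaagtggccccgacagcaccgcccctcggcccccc
TATAAA at that distance was present in 6 of the 32 members (18.8%), Il1a, Il1b, Tnf, Cxcl3, Clec4e and Acod1, and in 2.41% of all genes. A match is a description of the letters, and its absence says only that these letters are not in the window.

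Total counts were 26359299 to 27638075 in the knockout libraries and 27140474 to 31807588 in the wild-type libraries. Rbm5 was no lower in libraries labelled knockout, at 269.0, 266.7 and 245.3 CPM against 227.5, 214.1 and 173.6 CPM in wild type (log2 fold change 0.34, edgeR adjusted p = 0.107), so every direction below rests on the labels. CPM here is a count relative to the library's total after TMM scaling. The Y-linked gene Ddx3y had 2645 to 3311 counts in each knockout library and 0 in each wild-type library. Sex and the knockout label therefore cannot be told apart. Library 32 differed from the other knockout libraries in the X-linked gene Xist, with 5027 counts against 350 (library 31) and 795 (library 40). Xist counts of wild-type libraries 25, 27 and 29 were 55246, 39237 and 40004. What this difference contributes to the members' values in library 32 was not tested. The myeloid genes Ptprc and Spi1 averaged 595.2 and 423.9 CPM in knockout and 365.1 and 315.4 CPM in wild type. They belong to a list of 10 myeloid leukemia and progenitor markers that did not move as one. Of these, 6 had positive and 4 negative log2 fold changes, and edgeR called 4 higher and 1 lower. Over all genes tested, edgeR called 5.45% higher and 3.12% lower. Among markers of other cell types, those of T cells summed to 1.83 to 4.25 CPM in knockout and 0.590 to 0.856 CPM in wild type. NK-cell markers summed to 0.382 to 2.45 CPM in knockout and 0.190 to 0.471 CPM in wild type. Erythroid markers, of which 1 was called higher, summed to 3.23 to 4.69 CPM in knockout and 1.30 to 2.56 CPM in wild type. Eosinophil markers summed to 94.2 to 150.3 CPM in knockout and 49.1 to 129.7 CPM in wild type, with Prg2 rising, and mast cell and basophil markers to 23.02 to 28.4 CPM in knockout and 26.04 to 44.7 CPM in wild type. B-cell markers summed to 29.5 CPM in knockout library 40 and 29.1 CPM in wild-type library 29, against 9.50 to 12.2 CPM in the other libraries. Dendritic-cell markers summed to 8.64 to 23.7 CPM in knockout and 12.97 to 22.7 CPM in wild type. Megakaryocyte markers, of which 1 was called higher, summed to 9.79 to 21.2 CPM in knockout and 7.20 to 13.8 CPM in wild type. Stroma and endothelium markers, of which 0 were called, summed to 7.34 to 16.5 CPM in knockout and 2.71 to 6.04 CPM in wild type. The part of these cell types in the members' values was not tested.

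Most members were higher in the knockout libraries than in wild type. Of the 41 genes, 37 had enough counts to be tested, and 36 of these had a positive log2 fold change (knockout minus wild type), where 48.8% of all 15963 tested genes did. With total counts alone as scaling, Rela and Sod2 turned negative as well. The median was 1.03, against -0.01 for all tested genes. In edgeR's quasi-likelihood test, with p-values adjusted over all genes, 7 members rose at the threshold of 0.05, namely Il1b, Il1rn, Icam1, Plaur, Bcl3, Acod1 and Tnfaip2. That is 18.9% of those tested, where 5.45% of all tested genes rose and 8.57% passed in either direction. By the same test 0 members fell, where 3.12% of all genes did. Of the same 15963 genes DESeq2 called 1553 higher and 1054 lower, and limma-voom 834 and 468. The counts by role below are small and are to be read beside these. Of the negative members 1 had an unadjusted p under 0.05 (Ccl9), with 1 called lower by DESeq2 and 0 by limma-voom. At an unadjusted p of 0.0448 by edgeR, Cd83 had an adjusted p of 0.175. The share of all genes under an unadjusted 0.05 was not counted, so such counts, here and below, lack that comparison. Among all called genes 63.6% were higher, or 46.7% if libraries were scaled by total counts alone, a change that shifted the median of all genes by -0.12 on the log2 scale.

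The knockout libraries stood wholly above the wild-type libraries for 21 of the 37 tested members (56.8%), where 17.2% of all tested genes were so ordered. Ccl9 was the 1 member wholly below (all genes, 16.5%), and 15 members overlapped. Means differed by over 2-fold, higher in knockout, for 19 members, where 7.02% of all genes did. Over all genes, 870 were called higher, against 357, 787, 245, 409, 446 and 468 without libraries 31, 32, 40, 25, 27 and 29. The number of members called higher also depended on which libraries entered, from 1 (without knockout library 31 or wild-type library 25) to 11 (without knockout library 32). It was 2 without knockout library 40 or wild-type library 27, 5 without wild-type library 29, and 0 when wild-type libraries 27 and 29 were both left out, which leaves 1 wild-type library.

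**Figure D1:**
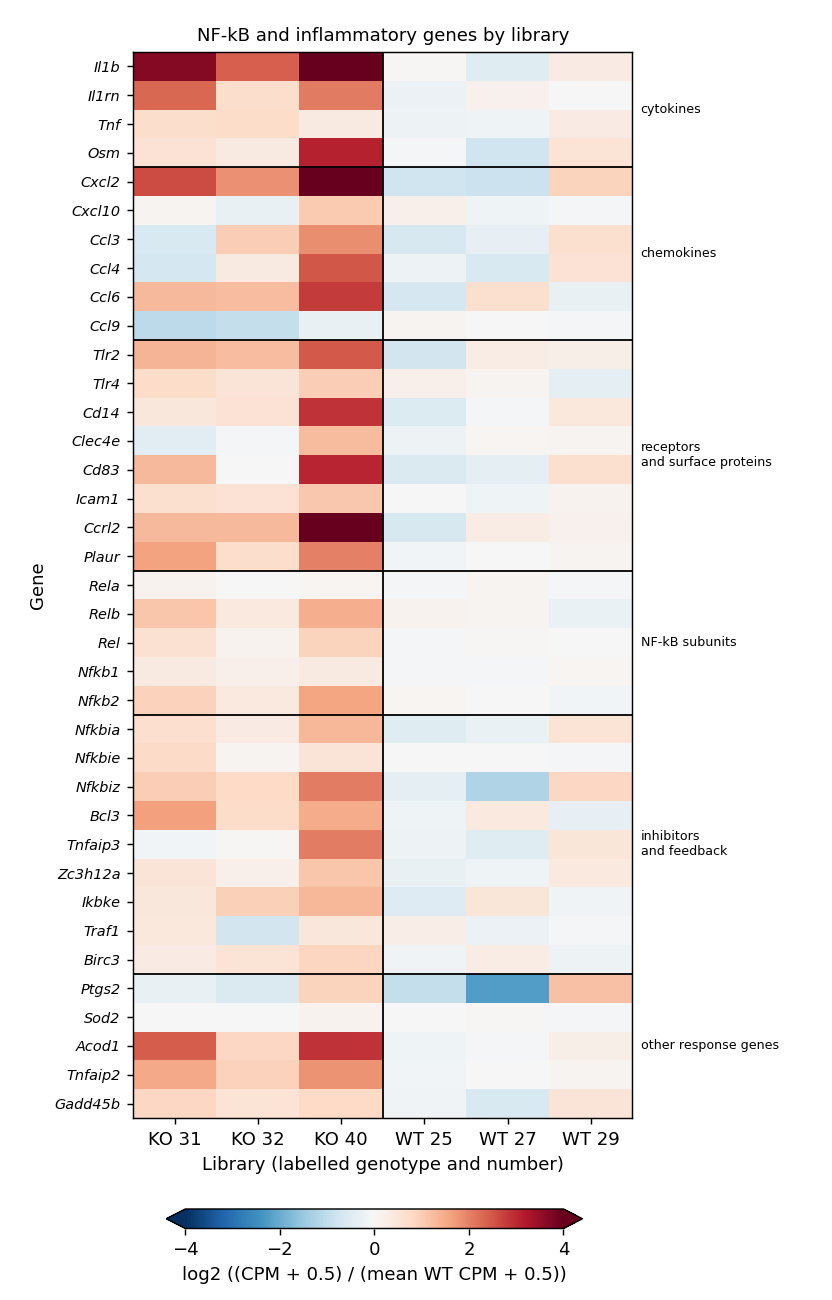
Level of each of the 37 tested members in each library, as log2 of (CPM + 0.5) over (mean wild-type CPM + 0.5), with rows grouped by role and knockout libraries on the left. Colours saturate at 4. Most rows are red in the 3 knockout columns and deepest in library 40, while Ccl9 is blue there and Rela and Sod2 are pale throughout.

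Library 40 carried the highest value of many members. It was the highest of the 6 libraries for 29 of the 37 tested members (78.4%), where it was the highest for 23.2% of all tested genes. Its value was over 2-fold above the mean of the other two knockout libraries for 16 members, against 4.80% of all genes. The median ratio of library 40 to that mean was 1.74 over the members and 0.985 over all genes. Without library 40, the members' median log2 fold change was 0.61, and 29 members had positive and 8 negative values. The sum over the 41 members was 3009.61, 2685 and 4908 CPM in knockout libraries 31, 32 and 40, against 1811, 1850.3 and 2392 CPM in wild-type libraries 25, 27 and 29.

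The sums of other gene lists differed between the libraries as well. Summed over 16 markers of mature neutrophils, the libraries held 11840.4, 10174 and 17903 CPM in knockout and 996.4, 2005 and 2749 CPM in wild type, and 12 of these markers rose by the edgeR test. Over 18 markers of monocytes and macrophages the sums were 5087, 4981 and 7063 CPM in knockout and 1972, 3128 and 2982 CPM in wild type, and Csf1r, Ms4a7 and Lyz2 rose. Over 17 immediate early and handling genes, which are quickly induced when cells are disturbed, they were 8365, 8370.46 and 22746 CPM in knockout and 4458, 3966 and 10918 CPM in wild type. Of those 17 genes edgeR called 0, with 4 at an unadjusted p under 0.05 (share over all genes not counted). DESeq2 called 5 higher and limma-voom 0. Over all tested genes edgeR called 5.45% higher, the share beside which the marker counts above stand. Library 40 had the highest sum of all 3 lists, and wild-type library 29 exceeded knockout libraries 31 and 32 in the immediate early sum. The part of these genes in the members' values was not tested, and in bulk RNA more cells of a type and more RNA per cell cannot be told apart.

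**Figure D2:**
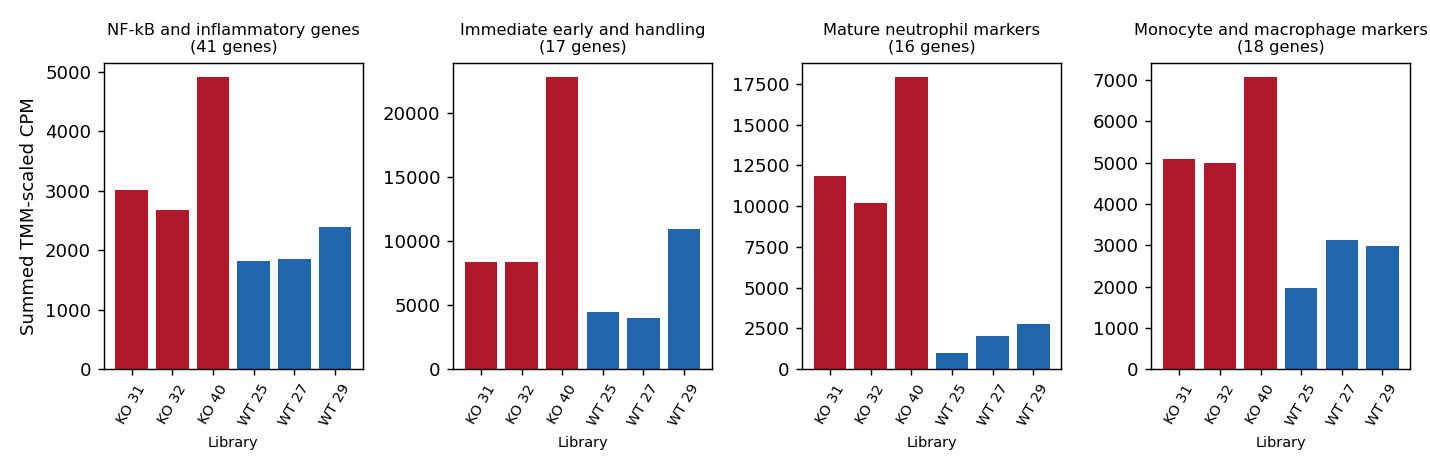
Summed TMM-scaled CPM per library for the 41 members, 17 immediate early and handling genes, 16 mature neutrophil markers and 18 monocyte and macrophage markers, with knockout libraries in red and wild-type libraries in blue. Each y axis starts at 0 and has its own scale. Knockout library 40 is highest in each panel, and in the immediate early panel wild-type library 29, at 10918 CPM, stands above knockout libraries 31 and 32.

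Among the cytokines, 4 of 7 were tested and 2 rose by the edgeR test, Il1b and Il1rn, against 3 with DESeq2 and 0 with limma-voom. By edgeR 5.45% of all tested genes rose. Il1b (ENSMUSG00000027398, chromosome 2, 129206490 to 129213059 in the table's coordinates, for which it names no build and which cannot be set beside the promoter coordinates above) encodes the precursor of interleukin-1 beta, and was at 17.7, 7.07 and 92.6 CPM in the knockout libraries (31, 32 and 40), against 1.000, 0.521 and 1.30 CPM in the wild-type libraries (25, 27 and 29). Library 40 stood far above the other two knockout libraries, and all 3 stood above every wild-type library (log2 fold change 5.36 ± 1.16 SE, edgeR adjusted p = 0.0484). The fold change remained 3.71 without library 40 (adjusted p = 0.0244), whereas the adjusted p was 0.0833, 0.169, 0.152 and 0.119 without libraries 31, 25, 27 and 29. By edgeR it was also 0.0525 with upper-quartile factors, 0.0519 with total counts alone and 0.137 without a filter. By limma-voom it was 0.176. Il1b is overlapped on the other strand by the noncoding gene Il1bos, which had 33 counts in all against 3017 for Il1b, and whether counting used strand is not stated in the labels.

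Il1rn (ENSMUSG00000026981, chromosome 2, 24226865 to 24241506), which encodes the receptor antagonist that blocks interleukin-1, was at 31.9, 10.2 and 27.4 CPM in the knockout libraries, against 5.18, 7.01 and 6.18 CPM in the wild-type libraries. Here library 31 was highest and library 32 lay nearest to wild type (log2 fold change 1.92 ± 0.40 SE, edgeR adjusted p = 0.0341). With 1 library left out, the call was kept only without library 32. The adjusted p was 0.0771, 0.110, 0.110, 0.0816 and 0.0985 without libraries 31, 40, 25, 27 and 29. It was 0.0735 by edgeR without a filter and 0.0863 by limma-voom. Il1a, the other agonist of the same receptor, had too few counts for the test, with 5, 5 and 27 counts in the knockout libraries, against 12, 1 and 10 counts in the wild-type libraries. Its groups overlapped, and the ratio over summed counts was 1.96 (95% counting interval 1.13 to 3.45), an interval that covers counting error only. The noncoding gene Gm14023, on the other strand, overlaps Il1a and had 122 counts in all against 60.

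Tnf, the founding cytokine of the pathway, was the most abundant of the 7 cytokine genes per unit of length, at 189.7 CPM per kb in knockout and 124 CPM per kb in wild type. By library it was at 333, 337 and 263 CPM in the knockout libraries, against 178, 179 and 255 CPM in the wild-type libraries. The groups did not overlap, although knockout library 40 lay close to wild-type library 29 and Tnf did not pass (log2 fold change 0.61, edgeR adjusted p = 0.0615). Tnf was highest in library 32 and lowest of the knockout libraries in library 40, unlike most members. It passed without wild-type library 29 (adjusted p = 0.0298).

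Osm, which encodes oncostatin M, a cytokine of the interleukin-6 family, was at 36.7, 31.3 and 208 CPM in the knockout libraries, against 23.2, 13.7 and 35.9 CPM in the wild-type libraries. The high value came from library 40, and wild-type library 29 exceeded knockout library 32 (log2 fold change 1.92, edgeR adjusted p = 0.218). Il6 and Il10, a proinflammatory and an anti-inflammatory cytokine, were nearly absent, with 1, 0 and 8 counts in the knockout libraries, against 0, 2 and 1 counts in the wild-type libraries for Il6. Il10 had 0, 9 and 22 counts in the knockout libraries, against 1, 3 and 3 counts in the wild-type libraries. For Il10 the ratio over summed counts was 5.39 (95% counting interval 2.33 to 14.5), with the highest value again in library 40 and 0 counts in library 31, and for Il6 it was 3.65 (0.911 to 21.0).

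The chemokines did not pass the test in either direction. Of 7 members, 6 were tested, and 3 had an unadjusted p under 0.05 (2 positive and 1 negative, share over all genes not counted). DESeq2 called 2 higher and 1 lower, and limma-voom called 0. Cxcl2, a neutrophil attractant that signals through CXCR2 and whose κB site is printed above, was at 27.3, 15.7 and 256 CPM in the knockout libraries (31, 32 and 40), against 2.15, 2.01 and 7.99 CPM in the wild-type libraries (25, 27 and 29). The knockout libraries stood above all wild-type libraries, but library 40 was 11.9-fold above the mean of the other two (log2 fold change 4.62 ± 1.35 SE, edgeR adjusted p = 0.0973). Cxcl3, with the same 11 bases in its promoter, had only 7, 3 and 7 counts in the knockout libraries, against 0, 2 and 5 counts in the wild-type libraries and was not tested.

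Ccl3 and Ccl4, a pair of CC chemokine genes that lie near each other on chromosome 11, were highest in library 40. Ccl3 was at 29.3, 88.99 and 163 CPM in the knockout libraries, against 28.2, 35.4 and 70.6 CPM in the wild-type libraries. A noncoding gene on the other strand overlaps Ccl3 and had 2064 counts in all against 11310. Ccl4 was at 4.50, 10.1 and 44.9 CPM in the knockout libraries, against 6.53, 4.83 and 11.6 CPM in the wild-type libraries. In both genes library 31 lay below wild-type library 29, and the log2 fold changes of 1.07 and 1.37 (adjusted p = 0.364 and 0.376) were 0.40 and -0.070 without library 40.

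Ccl6 and Ccl9, further CC chemokines, which are made by myeloid cells, differed in sign. Ccl6 was at 72.3, 69.1 and 208 CPM in the knockout libraries, against 18.1, 46.1 and 23.8 CPM in the wild-type libraries. Ccl9 was at 113, 121 and 192 CPM in the knockout libraries, against 255, 231 and 221 CPM in the wild-type libraries. Every knockout library was above every wild-type library for Ccl6 (log2 fold change 1.99, edgeR adjusted p = 0.0985) and below every one for Ccl9 (log2 fold change -0.73, edgeR adjusted p = 0.0648). Ccl9 passed as lower without library 40 (adjusted p = 0.0118) and with total counts alone (adjusted p = 0.0268). Cxcl10, an interferon-induced chemokine, was at 0.612 to 2.29 CPM in knockout and 0.695 to 1.06 CPM in wild type, and its log2 fold change of 0.58 turned to -0.12 without library 40. Art3, on the other strand, overlaps Cxcl10 and had 62 counts in all against 180.

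Receptors and surface proteins had positive log2 fold changes in 8 of 8 members, of which Icam1 and Plaur rose by the edgeR test and 6 did not pass. DESeq2 called 5 of the 8 higher and limma-voom 2. The edgeR share over all tested genes was 5.45%. Icam1 (ENSMUSG00000037405, chromosome 9, 20927281 to 20940113), a ligand of leukocyte integrins, was at 58.5, 56.002 and 80.4 CPM in the knockout libraries (31, 32 and 40), against 37.9, 33.6 and 41.3 CPM in the wild-type libraries (25, 27 and 29). The groups were apart, with library 32 closest to wild type (log2 fold change 0.79 ± 0.16 SE, edgeR adjusted p = 0.0250). Without libraries 31, 40, 25 and 27 the adjusted p was 0.0533, 0.0639, 0.0651 and 0.0764. Plaur (ENSMUSG00000046223, chromosome 7, 24161909 to 24175393), the urokinase receptor, which guides protease activity to the cell surface, was at 185, 97.4 and 246 CPM in the knockout libraries, against 55.3, 60.7 and 64.5 CPM in the wild-type libraries. Its wild-type libraries lay close together and its knockout libraries spread widely (log2 fold change 1.55 ± 0.32 SE, edgeR adjusted p = 0.0374). The adjusted p was 0.103, 0.0784, 0.123, 0.0994 and 0.0928 without libraries 31, 40, 25, 27 and 29. It was 0.132 by edgeR without a filter.

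The pattern-recognition receptors did not pass the edgeR test, while DESeq2 called Tlr2 and Tlr4 higher (adjusted p = 1.76e-05 and 0.00691). Tlr2, the receptor of bacterial lipoproteins, was at 69.4, 64.5 and 151 CPM in the knockout libraries, against 15.999, 32.95 and 31.9 CPM in the wild-type libraries. Each knockout library was above each wild-type library (log2 fold change 1.82, edgeR adjusted p = 0.0621), and the call was made without robust shrinkage (adjusted p = 0.0334). Tlr4, the lipopolysaccharide receptor, was at 15.02 to 21.3 CPM in knockout and 8.12 to 12.03 CPM in wild type (log2 fold change 0.79, edgeR adjusted p = 0.0574). A noncoding gene on the same strand overlaps Tlr4 and had 400 counts in all against 2383. Cd14, which hands lipopolysaccharide to TLR4, was at 30.9, 33.4 and 168 CPM in the knockout libraries, against 15.1, 21.5 and 30.4 CPM in the wild-type libraries. For Cd14, libraries 31 and 32 lay just above wild-type library 29 and library 40 was 5.24-fold above their mean (log2 fold change 1.79, edgeR adjusted p = 0.199). Clec4e, a C-type lectin receptor of mycobacterial glycolipid, overlapped between groups (log2 fold change 0.45, edgeR adjusted p = 0.583), and its log2 fold change was -0.25 without library 40.

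Ccrl2, an atypical chemokine receptor that binds chemerin, was at 5.32, 5.31 and 50.7 CPM in the knockout libraries, against 1.03, 2.40 and 2.19 CPM in the wild-type libraries. Libraries 31 and 32 were nearly equal and above all wild-type libraries, and library 40 was 9.54-fold above their mean (log2 fold change 3.45 ± 1.09 SE, edgeR adjusted p = 0.114). Cd83, a surface marker of activated antigen-presenting cells, was at 1.79, 0.420 and 7.11 CPM in the knockout libraries, against 0.118, 0.208 and 0.951 CPM in the wild-type libraries. Library 32 fell within the wild-type range (log2 fold change 2.85, edgeR adjusted p = 0.175).

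**Figure D3:**
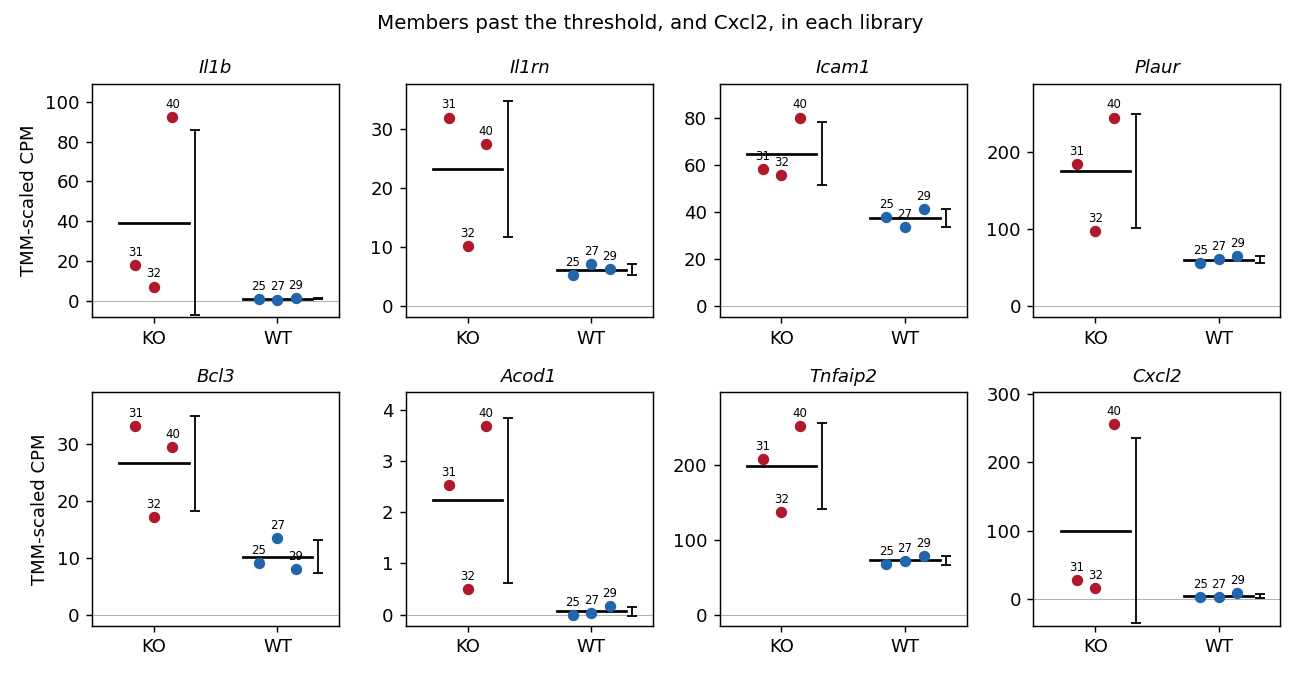
TMM-scaled CPM of the 7 members that passed the edgeR test, and of Cxcl2, in each library, with knockout libraries in red on the left and wild-type libraries in blue on the right. Points carry the library number, horizontal lines are means and bars are 1 SD (n = 3 each). All knockout points lie above all wild-type points in each panel, and library 40 stands far above libraries 31 and 32 for Il1b and Cxcl2.

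Among the NF-kB subunits themselves, 5 of 5 had positive log2 fold changes, with Rela turning negative under total-count scaling, and none passed the edgeR test. Of these 4 had an unadjusted p under 0.05 (share over all genes not counted), DESeq2 called 4 higher and limma-voom 0. Relb, the partner of p52 in the noncanonical pathway, was at 9.34, 5.39 and 11.8 CPM in the knockout libraries, against 4.53, 4.34 and 3.23 CPM in the wild-type libraries. Nfkb2, which encodes the p100 precursor of p52, was at 42.8, 29.5 and 67.7 CPM in the knockout libraries, against 23.8, 23.1 and 20.8 CPM in the wild-type libraries. Both were above wild type in every knockout library, by more in libraries 31 and 40 than in library 32 (log2 fold change 1.13 ± 0.33 SE, edgeR adjusted p = 0.0695 for Relb, and log2 fold change 1.05 ± 0.28 SE, edgeR adjusted p = 0.0629 for Nfkb2). Without library 32 both passed (adjusted p = 0.0320 and 0.0178). On the other strand, Psd and the noncoding gene 4833438C02Rik overlap Nfkb2, with 2095 and 1917 counts in all against 5711. What this overlap adds to the Nfkb2 values was not tested.

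The canonical subunits had smaller log2 fold changes. Rel was at 46.7 to 77.5 CPM in knockout and 40.9 to 43.2 CPM in wild type (log2 fold change 0.58, edgeR adjusted p = 0.0753). Nfkb1, which encodes the p105 precursor of p50, averaged 301 ± 19.1 CPM in knockout and 242 ± 13.99 CPM in wild type (SD, n = 3 each, log2 fold change 0.31, edgeR adjusted p = 0.0776). Rela, the main activating subunit, was at 103, 95.4 and 99.5 CPM in the knockout libraries, against 90.9, 101 and 90.7 CPM in the wild-type libraries. Its groups overlapped, and the log2 fold change of 0.075 (95% confidence interval -0.13 to 0.28) turned to -0.051 with total counts alone. Per unit of length Rela and Nfkb1 were the most abundant subunits in both groups. Rela was at 32.3 CPM per kb in knockout and 30.7 CPM per kb in wild type, and Nfkb1 at 24.9 CPM per kb in knockout and 20.1 CPM per kb in wild type, against 2.28 CPM per kb in knockout and 1.04 CPM per kb in wild type for Relb.

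Inhibitors and feedback genes, many of which NF-kB induces and which limit it, were positive in 9 of 9 members, of which Tnfaip3 and Traf1 turned negative without library 40, and Bcl3 rose by the edgeR test while 8 did not pass. DESeq2 called 4 of the 9 higher and limma-voom 1. The edgeR count of 1 of 9 cannot be set apart from the 5.45% of all tested genes that rose. Bcl3 (ENSMUSG00000053175, chromosome 7, 19542387 to 19556695), an atypical nuclear IkB protein that works with p50 and p52 homodimers, was at 33.03, 17.1 and 29.4 CPM in the knockout libraries (31, 32 and 40), against 9.03, 13.5 and 8.02 CPM in the wild-type libraries (25, 27 and 29). The highest value was in library 31 and the groups were apart (log2 fold change 1.38 ± 0.29 SE, edgeR adjusted p = 0.0309). Without libraries 31, 40, 25 and 29 the adjusted p was 0.0815, 0.108, 0.0939 and 0.0818. A noncoding gene on the other strand, Gm16174, overlaps Bcl3 and had 111 counts in all against 3002.

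Nfkbia, which encodes the classical inhibitor IkB alpha, was at 181, 145 and 286 CPM in the knockout libraries, against 81.8, 94.2 and 167 CPM in the wild-type libraries. Wild-type library 29 lay above knockout library 32, so the groups overlapped (log2 fold change 0.83, edgeR adjusted p = 0.197). Nfkbiz, another nuclear IkB protein that is needed for secondary response genes such as Il6, was at 177, 155 and 375 CPM in the knockout libraries, against 70.1, 39.1 and 161 CPM in the wild-type libraries. Its wild-type libraries spread from 39.1 to 161 CPM, with library 29 above knockout library 32 (log2 fold change 1.39, edgeR adjusted p = 0.213). Nfkbie, which encodes IkB epsilon, was at 26.8, 16.9 and 22.8 CPM in the knockout libraries, against 15.9, 15.7 and 15.3 CPM in the wild-type libraries, a difference smaller than those above, with the groups apart (log2 fold change 0.50, edgeR adjusted p = 0.124).

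Tnfaip3, which encodes the ubiquitin-editing enzyme A20, was at 29.7, 33.1 and 133 CPM in the knockout libraries, against 27.8, 22.8 and 45.3 CPM in the wild-type libraries. Library 40 was the 1 knockout library above the wild-type range, and the log2 fold change of 1.03 was -0.024 without it. Zc3h12a, an RNase that degrades cytokine mRNAs, and Ikbke, an IkB kinase-related enzyme, had log2 fold changes of 0.67 and 0.96 (adjusted p = 0.169 and 0.114), with overlapping groups. Birc3, the ubiquitin ligase cIAP2, was at 81.5 to 118 CPM in knockout and 56.7 to 79.2 CPM in wild type (log2 fold change 0.60, edgeR adjusted p = 0.0733), and Traf1, an adaptor of TNF receptors, was at 1.07 to 3.02 CPM in knockout and 1.70 to 2.62 CPM in wild type (log2 fold change 0.17, edgeR adjusted p = 0.848).

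Among the remaining response genes, Tnfaip2 and Acod1 rose by the edgeR test, against 3 of the 5 genes with DESeq2 and 1 with limma-voom. Over all tested genes 5.45% rose by edgeR. Tnfaip2 (ENSMUSG00000021281, chromosome 12, 111408903 to 111421452), a TNF-induced gene linked to membrane protrusions and vesicle transport, was at 207, 137 and 251 CPM in the knockout libraries (31, 32 and 40), against 67.2, 71.3 and 78.01 CPM in the wild-type libraries (25, 27 and 29). Even the lowest knockout library, 32, lay well above the highest wild-type library, 29 (log2 fold change 1.46 ± 0.21 SE, edgeR adjusted p = 0.0109). Tnfaip2 was the 1 member that passed whichever single library was left out, with a highest adjusted p of 0.0424 (without library 31), and it was 0.0564 with libraries 40 and 29 both left out. The overlapping Gm40578 on the other strand had 132 counts in all against 22100 for Tnfaip2. Acod1 (ENSMUSG00000022126, chromosome 14, 103284413 to 103294009), the enzyme that makes itaconate in activated macrophages, had 68, 13 and 90 counts in the knockout libraries, against 0, 1 and 5 counts in the wild-type libraries. The group means were 2.23 ± 1.61 CPM in knockout and 0.0644 ± 0.0834 CPM in wild type (SD, n = 3 each, log2 fold change 5.03 ± 1.06 SE, edgeR adjusted p = 0.0319), so nearly all counts of this lowly expressed gene came from knockout libraries. Acod1 entered the test through its counts in the knockout libraries alone, and a filter of at least 1 CPM in 3 libraries left it out. Its adjusted p by edgeR was 0.0756, 0.101, 0.0693 and 0.0955 without libraries 31, 40, 25 and 27. By limma-voom it was 0.0554.

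Gadd45b, a stress-induced gene that restrains JNK signalling, was the most abundant member per unit of length, at 262 CPM per kb in knockout and 159 CPM per kb in wild type. By library it was at 444, 366 and 438 CPM in the knockout libraries, against 227, 165 and 365 CPM in the wild-type libraries. Wild-type library 29 nearly reached knockout library 32 (log2 fold change 0.72, edgeR adjusted p = 0.153), and the gene passed without library 29 (adjusted p = 0.0245). Ptgs2, the inducible cyclooxygenase, was at 11.8, 9.63 and 27.6 CPM in the knockout libraries, against 7.29, 2.74 and 33.996 CPM in the wild-type libraries. Its highest value was in wild-type library 29, and its sign changed with the libraries left out (log2 fold change 0.15, edgeR adjusted p = 0.939). Sod2, the mitochondrial superoxide dismutase, was at 61.3 to 69.7 CPM in knockout and 59.9 to 64.03 CPM in wild type, and its log2 fold change of 0.041 (95% confidence interval -0.17 to 0.26) was -0.0044 with upper-quartile factors and -0.087 with total counts alone.

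**Figure D4:**
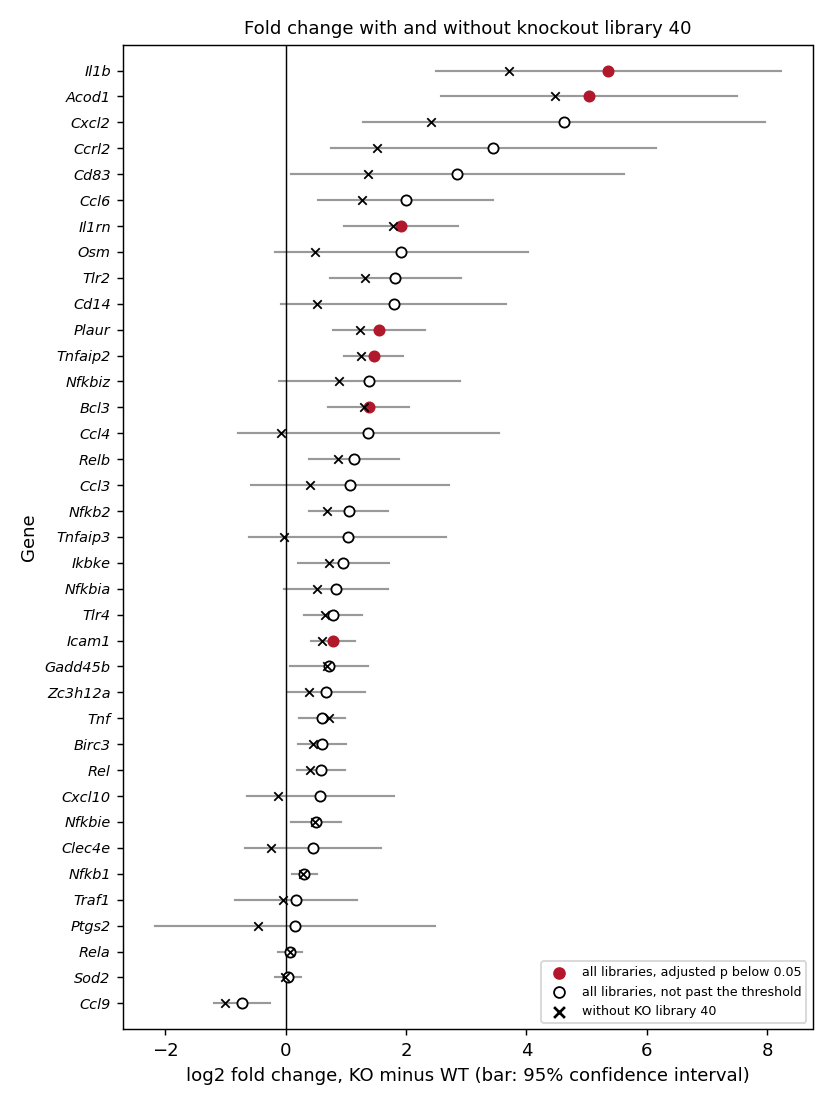
Log2 fold change (knockout minus wild type) of the 37 tested members with its 95% confidence interval, filled red where edgeR's adjusted p was below 0.05, and crosses for the same gene without knockout library 40. Dots reach 5.36 for Il1b, while Ccl9 lies at -0.73. Crosses for Cxcl2 (2.41), Ccrl2 (1.51), Il1b (3.71) and Cd83 (1.37) lie far to the left of their dots, as do those for Osm, Cd14, Ccl4 and Tnfaip3.

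The rest of the NF-kB pathway had a lower median difference. Of 95 other pathway genes, 87 were tested and 71 had positive log2 fold changes. By the edgeR test 10 rose (11.5%) and 0 fell, where 5.45% of all tested genes rose and 3.12% fell. Of the negative genes 1 had an unadjusted p under 0.05 (Il1rap), which DESeq2 called lower and limma-voom did not. The median was 0.31, against 1.03 for the members and -0.01 for all genes. As many as 12 rose without knockout library 32, but 4 without knockout library 40 or wild-type library 27. The count was 5 without wild-type library 25, 6 without wild-type library 29, and 1 with libraries 40 and 29 both left out. Calls over all genes fell in each of these settings, also without knockout library 32, where the pathway count went up.

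By role, 2 of 23 receptors and adaptors rose, 2 of 26 kinases and ubiquitin ligases, 0 of 14 negative regulators and 6 of 24 tested further target genes. Over all tested genes 5.45% rose. Counts as small as those of the receptors, kinases and negative regulators cannot be set apart from that share. Among the negative regulators 5 had an unadjusted p under 0.05 (share over all genes not counted), DESeq2 called 2 higher and limma-voom 0. The median log2 fold changes of these 4 groups were 0.37, 0.12, 0.19 and 1.03. Ikbkb, Chuk and Ikbkg, which encode the IkB kinase complex, had log2 fold changes of 0.10, 0.075 and -0.024. Il1r2, the decoy receptor that takes up interleukin-1 without signalling, was at 24.2, 23.1 and 46.3 CPM in the knockout libraries, against 6.68, 9.72 and 7.77 CPM in the wild-type libraries. It passed whichever single library was left out (log2 fold change 1.95 ± 0.30 SE, edgeR adjusted p = 0.0133). Irak4, a kinase of Toll-like and interleukin-1 receptors, rose by 0.37 on the log2 scale (edgeR adjusted p = 0.0447). It did not pass whichever single library was left out (adjusted p 0.0682 without knockout library 32 to 0.135 without knockout library 40).

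The paracaspase Malt1 and its upstream adaptor Card9 also rose. Malt1 averaged 108 ± 5.92 CPM in knockout and 69.98 ± 6.17 CPM in wild type (SD, n = 3 each, log2 fold change 0.63 ± 0.099 SE, edgeR adjusted p = 0.0124). Card9, which links C-type lectin receptors to MALT1, averaged 342 ± 21.05 CPM in knockout and 249 ± 18.2 CPM in wild type (SD, n = 3 each, log2 fold change 0.46, edgeR adjusted p = 0.0302). Malt1 passed whichever single library was left out, and the adjusted p of Card9 was 0.102 without knockout library 40.

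Among the further targets, Ltb, the membrane partner of lymphotoxin, was at 10.9, 5.54 and 8.46 CPM in the knockout libraries, against 1.68, 2.19 and 2.19 CPM in the wild-type libraries. It stood apart in every library and passed whichever single library was left out (log2 fold change 2.04 ± 0.32 SE, edgeR adjusted p = 0.0126). Peli1, a ubiquitin ligase of the receptor complexes, was at 73.5, 51.95 and 110.1 CPM in the knockout libraries, against 26.998, 29.8 and 27.6 CPM in the wild-type libraries (log2 fold change 1.48 ± 0.25 SE, edgeR adjusted p = 0.0206), and its adjusted p was 0.0677 without wild-type library 25. Gpr84, a receptor of medium-chain fatty acids, was at 9.11, 15.3 and 19.2 CPM in the knockout libraries, against 2.00, 2.88 and 5.45 CPM in the wild-type libraries (log2 fold change 2.07, edgeR adjusted p = 0.0293), and its adjusted p was 0.101 without knockout library 40. The survival genes Cflar and Bcl2a1a and the cytokine subunit gene Ebi3 also rose, by 0.49, 2.27 and 0.59 on the log2 scale (adjusted p 0.0412, 0.0423 and 0.0216 by edgeR). Without library 40 the adjusted p-values were 0.125, 0.140 and 0.0786. Bcl2a1a has near-identical copies among which reads can be split, and the copy Bcl2a1d had a log2 fold change of -0.037.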

How the data were processed

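RNA was extracted with TRIzol and sequenced by a commercial company, per the labels' protocols. The deposited table gives whole-number counts per gene, not normalized, for all 6 libraries. The submitters' processing notes name Salmon, limma, GRCm38 and mm10, with no step stated. On how counts were made and whether strand was used, nothing is given in the sources used here. A gene length in the table was used only to set levels of different genes per kilobase. Every pair of libraries differed by more than sampling noise (chi-square per degree of freedom of 43.9 or higher).

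Genes were kept by filterByExpr (minimum count 10, minimum total 15), scaled by TMM and tested with edgeR 4.0.16 (robust quasi-likelihood fit, R 4.3.3), knockout against wild type, two-sided, without covariates. P-values were Benjamini-Hochberg adjusted over all 15963 genes tested, at a threshold of 0.05. SEs follow from each fold change and F statistic. CPM are TMM-scaled. Ratios of members not tested have exact binomial intervals at 95%. Alternatives were other scalings and filters, the fit without robust shrinkage, DESeq2 1.42.0, limma-voom (limma 3.58.1) and leaving out libraries. The fit was tested on simulated data. The members and lists were chosen with earlier results of these data known. Members that passed or differed over 2-fold were given per library, and other pathway genes if they passed.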

Additional observations from a re-analysis of the deposited data

How the results depend on the processing

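For the 37 tested members, 588 values of single members were recomputed over the alternatives that gave one. Of these 489 kept their direction and their side of the threshold, 48 lost a call, 32 gained one and 19 changed sign. A filter of at least 1 CPM in 3 libraries tested 34 members, without Acod1, Cd83 and Cxcl10, and 6 were called higher. The count of members called higher (7) was 21 with DESeq2 and 4 with limma-voom, and the count of those lower (0) was 1 with DESeq2 and 1 with total counts alone. DESeq2 called 1553 of all genes higher and 1054 lower, 30 other pathway genes higher and 1 lower, and 5 immediate early and handling genes higher. Without a filter, 836 of all genes were lower and 17 other pathway genes higher, and without robust shrinkage 2 immediate early genes were higher. With wild-type libraries 27 and 29 both left out, where the lone wild-type library is taken to vary as the knockout group does, 305 of all genes were higher and 148 lower, with 0 members and 2 other pathway genes higher. With knockout library 40 and wild-type library 29 both left out, an alternative chosen after seeing the data, 144 of all genes were higher and 51 lower, with 2 members higher, 1 lower, and 1 other pathway gene and 1 immediate early gene higher. Leaving out 1 library at a time gave 245 to 787 of all genes higher and 102 to 440 lower, 1 to 11 members higher and 0 to 1 lower, 4 to 12 other pathway genes higher and 0 to 2 immediate early genes higher. The causes were not tested.

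Signs changed in 8 members, whose adjusted p was 0.376 or higher in the fit with all libraries. Leaving out 1 library at a time, the log2 fold change ranged from -0.12 to 0.91 for Cxcl10, from -0.070 to 1.85 for Ccl4, from -0.25 to 0.76 for Clec4e, from -0.024 to 1.38 for Tnfaip3, from -0.048 to 0.51 for Traf1, from -0.46 to 1.70 for Ptgs2 and from -0.016 to 0.076 for Sod2. With libraries 40 and 29 both left out, it was -0.15 for Cxcl10, -0.18 for Clec4e, -0.092 for Traf1 and -0.046 for Sod2. With wild-type libraries 27 and 29 both left out, it was -0.16 for Traf1 and -0.0013 for Sod2. Total counts alone gave -0.051 for Rela and -0.087 for Sod2, and upper-quartile factors -0.0044 for Sod2.

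No paired analysis was possible because the library numbers are not shared between the groups. At 26359299 to 31807588 counts per library, Il1a, Il6, Il10 and Cxcl3 were too low to test, and intervals on them cover counting error only. DESeq2 gave no adjusted p for Ccrl2. With 3 libraries per group, a p above the threshold does not show that a gene did not differ.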
